A study of Mus musculus with 4 samples.

Results

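The cytosolic ribosome is the machine that reads messenger RNA into protein in every cell. Its small (40S) subunit decodes the message and its large (60S) subunit forms the peptide bonds, and each holds ribosomal RNA and a set of proteins encoded by the Rps and Rpl genes. The messages of these proteins are among the most abundant in a lymphocyte. Many begin with a 5′ terminal oligopyrimidine (TOP) tract, a C followed by further C and T bases at the first transcribed position, through which growth signalling by mTOR controls their translation together.

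The 69 cytosolic ribosomal protein genes of the array were followed in B cells from lymph nodes, taken at 6 to 8 weeks of age from males of the inbred Balb/C background. A group of 2 mice was wild type (WT) and the other group of 2 was transgenic (TG) for miR-146a, a microRNA that dampens innate immune signalling, with 1 Affymetrix array per mouse. B cells were isolated untouched, by magnetic separation, and dead cells were depleted. The labels used here do not state the promoter that drives the transgene. Members were chosen by symbol: Rps or Rpl with a number and an optional a, x, l or l1, and Rplp0, Rplp1, Rplp2 and Rpsa. The symbols matched 132 probe sets annotated to 1 gene each, which stood for 69 of the 17097 genes in the table: 24 of the 40S subunit, 42 of the 60S subunit and 3 of the P stalk of the 60S subunit. Paralogs such as Rpl3l and Rpl7l1 are included. Where a gene had several, its brightest probe set by mean signal stood for it. Rpl5 and Rps3 were found only on probe sets annotated to several genes, and Rps27 and Rpl10l on none, so these 4 are not members.

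The sequence made from the transgene (RefSeq, mature miRNA, seed of bases 2 to 8 in capitals) identifies what differed by design.
mmu-miR-146a-5p: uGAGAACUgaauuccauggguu

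Transcription start windows are shown for some members because the TOP tract is the sequence feature that this gene class is known for. RefSeq promoter sequences (GRCm38.p6) were matched by symbol for 55 of the 69 genes, with 66 annotated starts in all. A C at the first position followed by at least 4 C or T bases stood at 11 of the 66 starts (16.7%), against 2.51% of all 32851 promoters in that table. The windows below run from 15 bases before the start to 15 bases from it, 5′ to 3′ on the strand of the gene, with the pyrimidine tract at the start in capitals. Rpl15, Rpl35 and Rps10 had the longest tracts. Rps6, Rplp2 and Rpl14 are shown because their values are described in detail, and Rpl7l1 and Rplp0 because their annotated starts held no such tract.
Rpl15 (chr14:18270972-18271001, minus strand): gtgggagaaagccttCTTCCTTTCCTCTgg
Rpl35 (chr2:39005117-39005146, minus strand): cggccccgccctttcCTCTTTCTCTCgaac
Rps10 (chr17:27635230-27635259, minus strand): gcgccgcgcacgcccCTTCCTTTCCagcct
Rps6 (chr4:86857353-86857382, minus strand): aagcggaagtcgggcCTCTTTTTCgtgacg
Rplp2 (chr7:141447636-141447665, plus strand): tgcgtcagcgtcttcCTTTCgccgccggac
Rpl14 (chr9:120571502-120571531, plus strand): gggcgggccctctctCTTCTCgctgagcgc
Rpl7l1 (chr17:46782642-46782671, minus strand): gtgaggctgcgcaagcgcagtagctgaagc
Rplp0 (chr5:115559452-115559481, plus strand): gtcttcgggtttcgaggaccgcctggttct
Annotated starts can lie some bases from the true start, so a missing tract says only that these letters are not at that position. Allowing a run of a C and at least 7 further C or T bases anywhere in the 30-base window, 36.4% of the member promoters and 9.26% of all promoters held one.

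Other short motifs known from ribosomal protein promoters were searched in the whole windows of 300 bases (250 before the start and 50 from it). CCGGAAG, the core of binding sites for ETS factors such as GABP, was found on either strand in 37.9% of the member promoters and 8.86% of all promoters. AAGATGG, part of YY1 sites, was found on either strand in 16.7% and 6.34%. GGGCGG, the GC box of Sp1, stood on either strand in 59.1% and 35.7%, and TATAA on the sense strand in 21.2% and 17.5%. These are matches of letters and not measured binding.

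The first question was whether any ribosomal protein transcript differed between the B cell samples of miR-146a transgenic and wild type mice. Markers of other cell types were also read in these samples and are given below. None of the 69 genes passed at 0.05 (limma, adjusted by Benjamini-Hochberg over all 45037 probe sets). In the background 0.0468% of the 17097 genes passed (8 genes), and 0.0466% of the probe sets, of which 0.0377% were higher and 0.00888% lower in transgenic mice. At an unadjusted limma p under 0.05 there was 1 member, Rpl14, against 14.1% of all genes (20% after quantile normalization, where Rpl14 was again the 1 member). The median difference (transgenic minus wild type) was -0.03 on the log2 scale for the members and -0.05 for all genes. It was 0.0062 for the members and 0.02 for all genes after quantile normalization, and 0.0233 for the members after median centring, so its sign depended on the scaling. Leaving out Rpl14, the differences ran from -0.27 for Rpl7l1 to 0.13 for Rps15a.

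The intervals put bounds on how large a difference could have been missed on the brightest probe set of each gene. Further sets of some genes had wider intervals, such as -1.10 to 0.27 for 1 set of Rpl27 (1448217_PM_a_at). The 95% interval of the difference lay within 0.5 log2 units of zero (1.41-fold either way) for 60 of the 69 genes, and within 1 log2 unit for every gene but Rpl14. The median standard error was 0.104 and the median half-width of the interval 0.271. These errors borrow the spread of all probe sets, since 2 mice per group give 2 residual degrees of freedom. Permuting the 4 arrays exactly gives no two-sided p below 0.333 for any 1 gene.

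**Figure D1:**
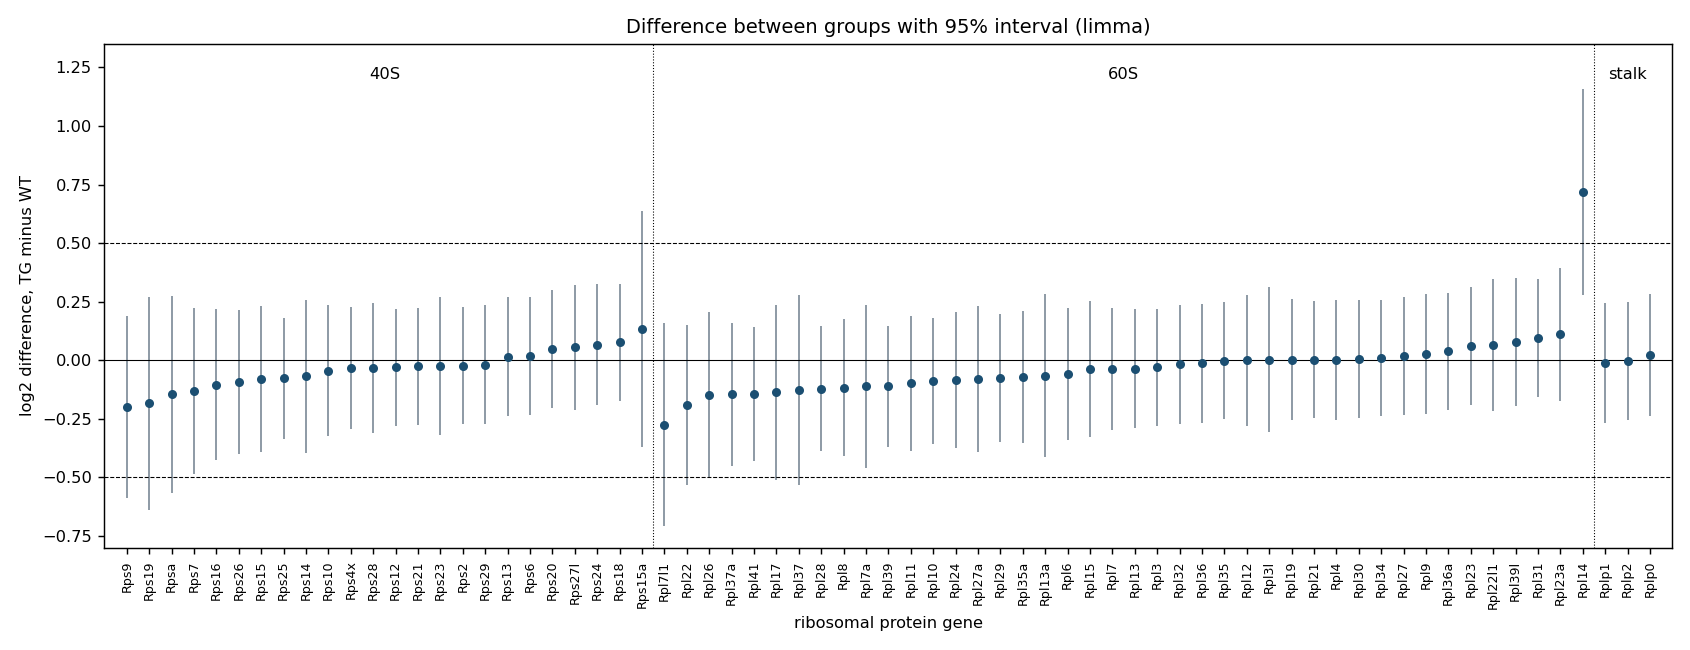
Difference between transgenic and wild type arrays on the log2 scale (points) with its 95% limma interval (bars) for the 69 ribosomal protein genes, ordered by subunit and size of difference, with dashed lines at 0.5 log2 units. Only the interval of Rpl14 (0.28 to 1.16) leaves out zero, and 60 of 69 intervals lie between the dashed lines.

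Counted without a test, 16 of the 69 genes were lower and 9 higher on both transgenic arrays than on both wild type arrays, and 44 overlapped. Over all genes 31.4% were lower and 17.7% higher without overlap. Among the 86 genes with a mean log2 signal above 12, of which 57 are members, the shares were 24.4% and 15.1%. Among the 29 of these that are not members they were 31.0% and 20.7%. The members' share of lower genes was 23.2%. After quantile normalization the members' count was 11 lower and 19 higher, and after median centring 13 lower and 16 higher. The shares over all genes were not counted after these rescalings, so no background stands beside these counts.

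The transgenic arrays differed from each other more than the wild type arrays did. On the array of transgenic mouse 1, 49 of the 69 genes were below both wild type arrays (61.8% of all genes were) and 16 above both (27.2% of all genes). On the array of transgenic mouse 2, 21 were below both (37.7% of all genes) and 40 above both (43% of all genes). The median difference from the wild type mean was -0.08 for mouse 1 and 0.02 for mouse 2, where all genes gave -0.14 and 0.01. The members' median log2 signal was 12.40 and 12.39 on the wild type arrays, 12.26 on the array of transgenic mouse 1 and 12.43 on that of transgenic mouse 2. The wild type arrays differed from each other by a median of 0.0176 per member and the transgenic arrays by 0.117.

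The array of transgenic mouse 1 also stood apart over the whole table, with a median of 4.48 and an upper quartile of 6.13 against 4.59 to 4.61 and 6.51 to 6.55 on the other 3. Without transgenic mouse 2, so that mouse 1 alone stood for its group, 13 of the 69 genes passed (2 higher and 11 lower), as did 19110 of all 45037 probe sets. Without transgenic mouse 1, 1 member passed (Rpl14), and 4140 probe sets. A lone transgenic array is assumed in these fits to vary like the wild type pair.

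**Figure D2:**
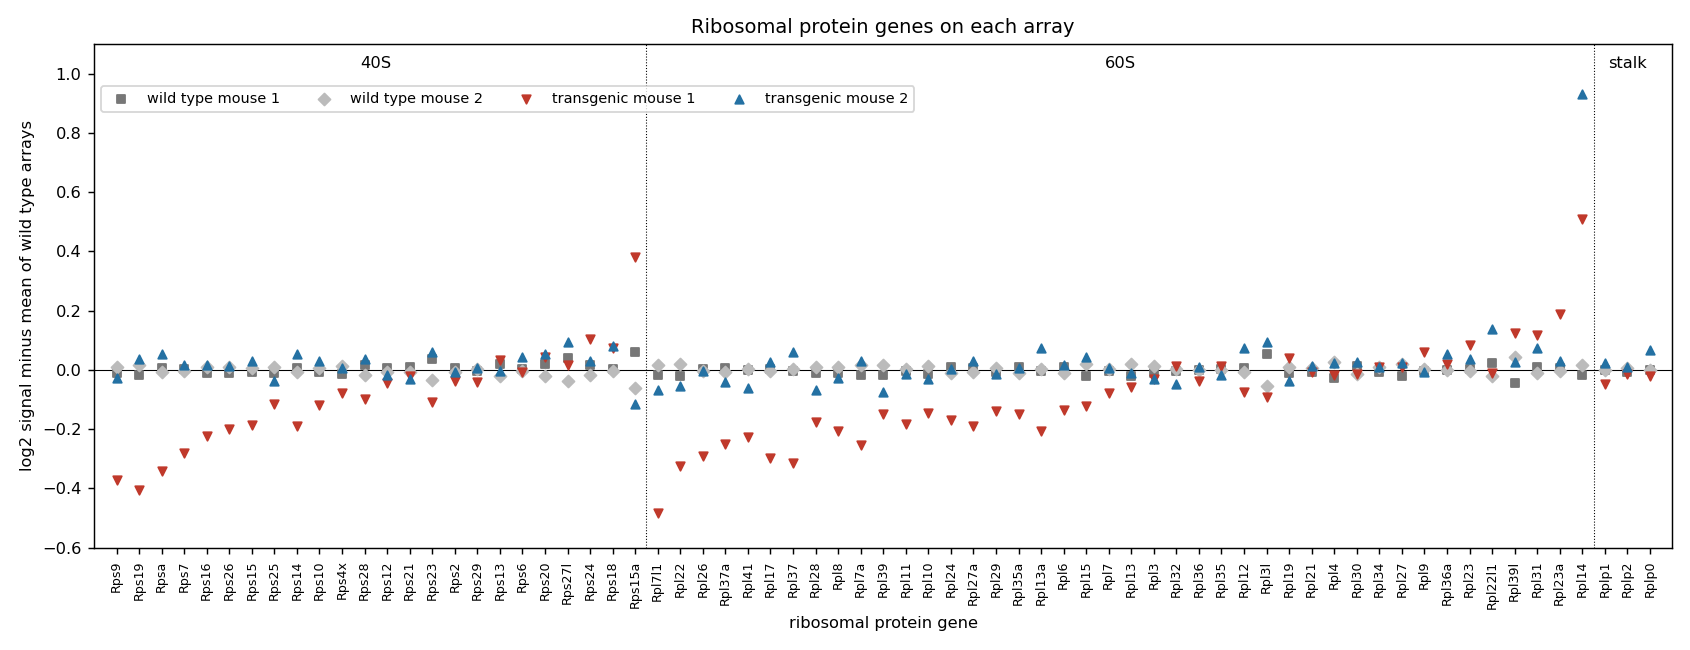
Log2 signal on each of the 4 arrays minus the mean of the wild type arrays for the 69 ribosomal protein genes (1 column per gene, 1 marker per mouse), ordered by subunit and difference. Downward triangles (transgenic mouse 1) lie below both wild type markers for 49 genes, while upward triangles (transgenic mouse 2) do so for 21.

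Markers of B cells and of other cell types were read in the same way. By limma 2 neutrophil markers passed (Chil3 and Ngp, both higher) and no marker of the other lists did. After quantile normalization, where 2.34% of all genes passed, 5 B cell markers (all lower) and 6 neutrophil markers (all higher) passed. So did 2 T cell and 2 monocyte and macrophage markers (all higher), 2 natural killer cell markers (1 higher and 1 lower) and no erythroid marker. The counts without overlap below are of the deposited values and stand against 31.4% of all genes lower and 17.7% higher. Of 9 measured B cell markers (10 listed) all 9 were lower without overlap, and their summed linear signal ran from 12018 to 12640 on the wild type arrays and from 6588 to 6842 on the transgenic ones. All 9 measured neutrophil markers (10 listed) were higher, with sums of 361 on both wild type arrays and 1604 to 2200 on the transgenic ones. Of 8 T cell markers 6 were higher and 1 lower, with sums of 9828 to 9912 and 11605 to 12932. Of 8 monocyte and macrophage markers 4 were higher and 1 lower, with sums of 1688 to 1730 and 2089 to 2442. Of 6 natural killer cell markers 2 were higher and 1 lower, with overlapping sums of 1389 to 1405 and 1236 to 1451, and both measured erythroid markers of 4 listed were higher, with sums of 3937 to 3976 and 4617 to 5391. No marker is at zero on this scale, where the lowest value of any B cell marker was 4.33 and of any neutrophil marker 3.51. All these cells express ribosomal proteins, and in such bulk samples fewer cells of a type and less RNA per cell cannot be told apart. The part of this mixture in the ribosomal protein values was not tested.

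Rpl14, a protein of the 60S subunit, had the largest difference of all members. Its probe set (1422128_PM_at) read 7.16 and 7.20 on the wild type arrays and 7.69 and 8.11 on the transgenic arrays. Both transgenic values lay above both wild type values, and the transgenic pair was wider apart. The difference was 0.72 (SE 0.17, 95% interval 0.28 to 1.16), a 1.65-fold higher signal, and did not pass over all probe sets (limma adjusted p = 0.222). After quantile normalization it was 0.92 and passed (limma adjusted p = 0.0251), as did 2.34% of all genes. Dropping single mice in turn kept the difference of Rpl14 positive, from 0.51 (transgenic mouse 2 dropped) to 0.93 (transgenic mouse 1 dropped). It was 0.70 with wild type mouse 1 dropped and 0.74 with wild type mouse 2 dropped. Each of these fits leaves 1 array in a group, so passing or not passing in them is not read as a property of Rpl14. With the replicate number as a block the limma adjusted p was 0.265.

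The other probe sets that carry the name of Rpl14 did not show a difference of this size. A further 4 are annotated to Rpl14 together with its pseudogene Rpl14-ps1, so that their signal cannot be assigned to either, and they are not counted among the members. The brightest of the 4 (1438626_PM_x_at) read 12.24 and 12.26 on the wild type arrays and 12.37 and 12.21 on the transgenic arrays. The groups overlapped there, with a difference of 0.04 (95% interval -0.24 to 0.33). The differences of the other 3 were 0.02, -0.01 and -0.01. The difference between probe sets was not tested.

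**Figure D3:**
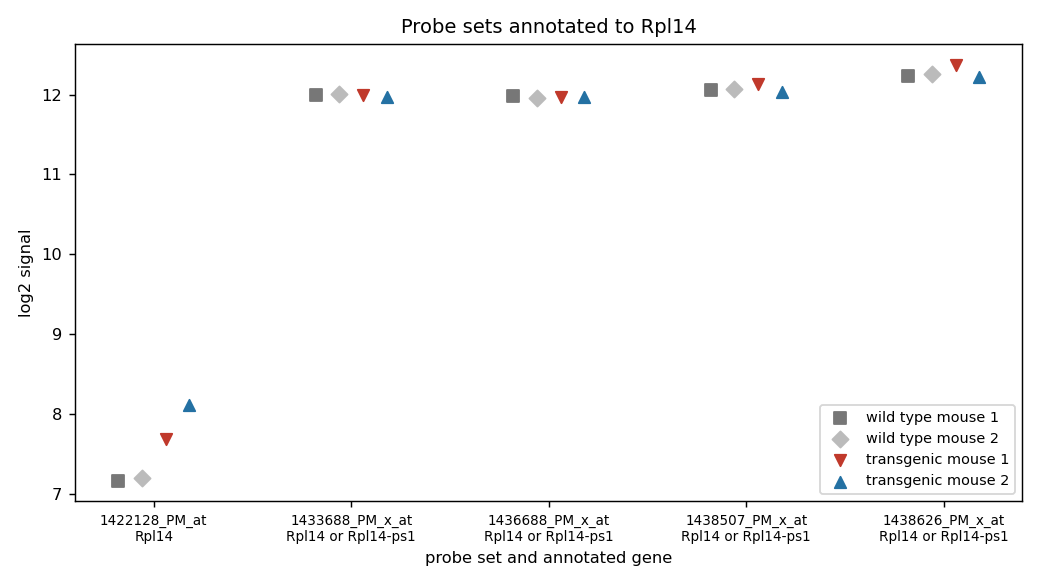
Log2 signal on each of the 4 arrays for the probe set annotated to Rpl14 alone (1422128_PM_at, left) and the 4 annotated to Rpl14 and its pseudogene Rpl14-ps1. On the left the transgenic values (7.69 and 8.11) lie above the wild type values (7.16 and 7.20), while on the 4 bright sets the 4 arrays lie close together near 12.

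Among the proteins of the 40S subunit the median difference was -0.03 over 24 genes, with 5 lower and 3 higher without overlap and none called. As shares these are 20.8% and 12.5%, beside 31.4% and 17.7% of all genes. On 24 genes this is a gap of few genes. The median of the mean log2 signal was 12.44 for these genes and 5.24 for all genes, so the shares are not compared at like signal. Rps6, the substrate by which S6 kinase activity is often read, read 12.91 and 12.91 on the wild type arrays and 12.90 and 12.95 on the transgenic arrays. The values overlapped, and the difference was 0.02 (SE 0.10, 95% interval -0.23 to 0.27, limma adjusted p = 0.952). Rps19, a gene mutated in the inherited anaemia of Diamond and Blackfan, read 12.33 and 12.36 in wild type and 11.94 and 12.38 in transgenic mice. Only transgenic mouse 1 was low, and the difference was -0.18 (95% interval -0.64 to 0.27). Rpsa, also known as a laminin receptor, had the same arrangement, with 12.34 and 12.33 against 11.99 and 12.39 and a difference of -0.14. Rps9 read 12.02 and 12.04 in wild type and 11.66 and 12.01 in transgenic mice, without overlap by the small gap to transgenic mouse 2, and its difference was -0.20 (95% interval -0.59 to 0.19, limma adjusted p = 0.591). Rps27l, a paralog of Rps27 known as a p53 target, read 10.11 and 10.03 against 10.09 and 10.16 (difference 0.06). Rps15a was the 1 dim member of this subunit, at 5.29 and 5.17 against 5.61 and 5.12, and the other 23 had mean log2 signals of at least 10.1.

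The 42 genes of the 60S subunit had a median difference of -0.04, with 11 lower and 6 higher without overlap and none called. As shares these are 26.2% and 14.3%, beside 31.4% and 17.7% of all genes, again a gap of few genes and not at like signal. Rpl7l1, a paralog of Rpl7 that acts in assembly of the large subunit, had the largest negative difference. It read 8.62 and 8.65 in wild type and 8.16 and 8.57 in transgenic mice, lower without overlap, with a difference of -0.27 (SE 0.17, 95% interval -0.71 to 0.16, limma adjusted p = 0.524). Rpl7 itself read 12.30 and 12.30 against 12.22 and 12.31 and overlapped. Rpl22, required for the development of T cells that carry the alpha beta receptor, read 11.68 and 11.72 against 11.37 and 11.64, a difference of -0.19 (SE 0.13, 95% interval -0.53 to 0.15, limma adjusted p = 0.564). A dimmer set of Rpl22 differed by -0.40 (95% interval -0.78 to -0.007, limma adjusted p = 0.36). A brighter set, annotated to Rpl22 and a further gene, differed by -0.06 with overlap. The paralog Rpl22l1, which Rpl22 is known to repress, read 11.85 and 11.81 against 11.82 and 11.97, a difference of 0.06 with overlap. The other paralogs were read from dim probe sets: Rpl39l, best known from testis, differed by 0.08 from a wild type mean of 4.82, and Rpl3l, of heart and skeletal muscle, by 0.002 from 3.28. Their partners Rpl39 (12.69 and 12.72 against 12.56 and 12.63) and Rpl3 (12.46 and 12.49 against 12.44 and 12.44) were bright and slightly lower without overlap, by 0.11 and 0.03 on the log2 scale. The sign of Rpl3 turned after quantile normalization (0.01) and median centring (0.02).

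Rpl11, which with Rpl5 and 5S ribosomal RNA binds the p53 regulator MDM2, read 12.29 and 12.30 in wild type and 12.11 and 12.28 in transgenic mice. It was lower without overlap, by a difference of -0.10 (95% interval -0.39 to 0.19). Rpl10, which joins the large subunit late in its maturation, differed by -0.09, Rpl28 by -0.12, Rpl8 by -0.12, Rpl37a by -0.15 and Rpl41, the smallest ribosomal protein, by -0.14. Each of these 5 was lower without overlap on its brightest probe set, with limma adjusted p-values between 0.598 and 0.732. The 3 probe sets of Rpl37a ranged from -0.15 to 0.15, and on the second set of Rpl10 (-0.08) the groups overlapped. Rpl26 differed by -0.15 with overlap. In the other direction Rpl23a, which lies at the exit of the peptide tunnel, read 12.78 and 12.77 against 12.96 and 12.80. It was higher without overlap, with a difference of 0.11 (95% interval -0.17 to 0.39, limma adjusted p = 0.679), and the further 3 probe sets of Rpl23a differed by 0.13, 0.11 and 0.10.

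The P stalk proteins, which recruit translation factors to the ribosome, had differences between -0.01 and 0.02. Rplp0, widely used as a reference gene, read 12.37 and 12.37 in wild type and 12.35 and 12.44 in transgenic mice (difference 0.02, 95% interval -0.24 to 0.28). Rplp1 read 12.57 and 12.56 against 12.52 and 12.59 (difference -0.01), and Rplp2 read 12.71 and 12.73 against 12.70 and 12.73 (difference -0.003). All 3 overlapped between the groups. Rplp1 and Rplp2 changed sign with quantile normalization and with median centring.

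Ribosomal protein probe sets were among the brightest on the array. Of the 69 genes 57 had a mean log2 signal above 12, out of 86 such genes in the table, and 51 of the 100 brightest probe sets were ribosomal protein sets. The highest value in the table was 13.03, so the means of these 57 lie within 1 log2 unit of it. Whether differences are smaller near the top of the scale for that reason was not tested. Brightness depends on the probes as well as on the amount of RNA, so the order of the genes is not an order of abundance. The 57 bright members had a median difference of -0.04 and the 29 other genes as bright had -0.08, with 5 of those 29 and none of the 57 at an unadjusted limma p under 0.05.

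All 132 ribosomal protein probe sets were set against signal. The 80 sets with a mean of 12 or more differed by a median of -0.03, the 20 sets from 9 to 12 by -0.08, the 15 from 6 to 9 by -0.17 and the 17 under 6 by 0.04. The other single-gene probe sets in these bands had medians of -0.09, -0.13, -0.19 and -0.01. After quantile normalization the medians of the ribosomal protein sets were 0.01, -0.02, 0.004 and 0.12. On the array of transgenic mouse 1 alone the medians of the ribosomal protein sets were -0.07, -0.18, -0.36 and -0.03, and on that of transgenic mouse 2 they were 0.02, 0.007, -0.008 and 0.07.

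**Figure D4:**
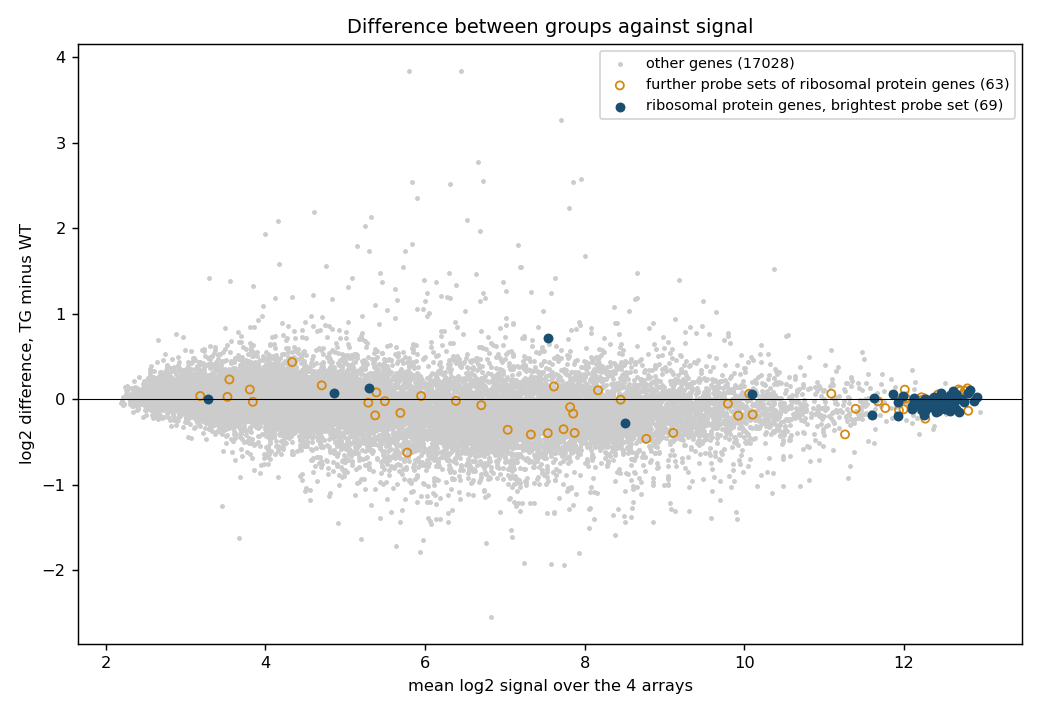
Difference between groups on the log2 scale against the mean log2 signal of the 4 arrays, for 69 ribosomal protein genes (filled), their 63 further probe sets (open) and 17028 other genes (grey). The members crowd above 12 near zero, Rpl14 stands apart at 0.72, and the members' sets between 6 and 9 have a median of -0.17, where other single-gene probe sets have -0.19 and a wider range.

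For 34 of the 69 genes more than 1 single-gene probe set was measured, and these did not always give the same size. The sets of Rpl27 ranged widest: the brightest differed by 0.02 and another (1448217_PM_a_at), which read 11.47 and 11.47 in wild type and 10.68 and 11.43 in transgenic mice, by -0.41. For Rps13 the brightest differed by 0.01 and a dim set (1415913_PM_at) by -0.40. For Rpl41 all 4 sets were lower, from -0.46 to -0.10, and for Rps20 all 4 were higher, from 0.05 to 0.43. The brightest set was of the type whose probes may match other transcripts (names ending in _s_at or _x_at) for 22 of the 69 genes. Ribosomal protein genes have many processed pseudogenes, and signal from such copies was not separated. In all 15 probe sets are annotated to a ribosomal protein gene together with another gene or a pseudogene, and none passed. Besides those of Rpl14 and Rpl22, the sets of Rpl5 differed by -0.05 (the brightest), -0.57 and -0.52. Those of Rps3 differed by 0.35 and -0.05, and those of Rps12 by -0.08 and 0.18. Sets of Rpl3, Rps26 and Rpl12 differed by -0.42, -0.58 and -0.28. Their signal cannot be assigned to 1 gene.

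Genes that build or control the ribosome were described from lists, whose counts without overlap stand against 31.4% of all genes lower and 17.7% higher. Of 31 measured (33 listed) ribosome biogenesis factors none passed, 10 were lower and 1 higher without overlap, and the median difference was -0.17. Riok1, a kinase of 40S maturation, differed by -0.51 (limma adjusted p = 0.227), Nolc1, a nucleolar phosphoprotein, by -0.41 and Eif6, which keeps the subunits apart, by -0.41. Of 11 measured (14 listed) components of RNA polymerase I and its factors none passed and 3 were lower without overlap (median -0.10), with Taf1a at -0.39. Of 11 measured (14 listed) genes of mTOR signalling and translational control none passed and 6 were lower without overlap (median -0.25), with Mtor at -0.41, Mlst8 at -0.38 and Rps6kb2, an S6 kinase, at -0.35. Of 3 measured (4 listed) genes of the p53 pathway, Mdm2 differed by -0.47, Mdm4 by -0.38 and Cdkn1a by 0.18, and none passed. After quantile normalization the medians of the 4 lists were -0.02, 0.07, -0.15 and -0.20, with none called. On the array of transgenic mouse 1 the deposited values gave -0.38, -0.17, -0.43 and -0.54. On that of transgenic mouse 2 they gave 0.03, 0.02, -0.02 and -0.21. Single-gene probe sets outside the members with a mean log2 signal of 6 to 9 had a median of -0.19. Of these 45.8% were lower and 11.9% higher without overlap. The lists were not compared at like signal, and the part of signal level was not tested.

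The 14 measured (15 listed) translation factors and related genes with known TOP starts had a median of -0.07, none passed, and 3 were higher and 2 lower without overlap (17.7% and 31.4% of all genes were). Npm1, a nucleolar chaperone, differed by 0.28 (limma adjusted p = 0.367), Eef2, the elongation factor of translocation, by -0.26 and Eif4b by -0.24. Fau, which encodes a 40S protein outside the symbol rule, read 12.49 and 12.47 against 12.20 and 12.40 (difference -0.18, limma adjusted p = 0.543). Of 71 mitochondrial ribosomal protein genes, which serve a separate ribosome, none passed, 31 were lower and none higher without overlap (31.4% and 17.7% of all genes were), and the median was -0.22 (-0.05 after quantile normalization). Their median on the array of transgenic mouse 1 was -0.42 and on that of transgenic mouse 2 -0.02, against -0.08 and 0.02 for the cytosolic members, which lie higher on the signal scale. Of single-gene probe sets outside the cytosolic members with a mean log2 signal of 6 to 9, 45.8% were lower and 11.9% higher without overlap. From 9 to 12 these shares were 42.1% and 15.8%. The mitochondrial genes were not sorted into these bands, so their counts are not compared at like signal. The part of signal level in these contrasts was not tested.

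Members with and without a TOP start at the annotated position were set side by side. The 11 genes with such a start had a median difference of -0.003 and the 44 without it -0.05, and after quantile normalization these were 0.01 and -0.01. The ranges were -0.12 to 0.72 and -0.27 to 0.09, so they overlapped, and the highest value in the first set was that of Rpl14.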

How the data were processed

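Each array gave 45141 probe set values, which the authors deposited as log2 signals (the scale follows from their range, 2.02 to 13.03). Background correction, normalization and probe summary are not stated in the labels or the table. The platform annotation named 1 gene for 28898 probe sets, several for 551 and none for 15588, and all 69 members matched RefSeq by Entrez ID with the same symbol. The 104 control sets were left out.

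Sample titles gave the groups. The fit used limma 3.58.1 under R 4.3.3, two-sided, with Benjamini-Hochberg adjustment over 45037 probe sets and a threshold of 0.05. The code was run on simulated data drawn from the fitted spread. That simulation had no shifted array like that of transgenic mouse 1, so it does not bear on that shift. Mice carry the numbers 1 and 2 in both groups, with no pairing stated (correlation of same-numbered deviations 0.01 over all probe sets and 0.27 over the members), so the replicate number was a block only in an alternative. The small number of arrays limits the precision. The titles name separate mice. Members and lists were chosen with earlier results of these data known. Named genes were the 12 members of smallest p, a set list of stalk, paralog and well-known genes, the 4 genes whose probe sets disagreed most, and up to 3 genes per list. The signal bands were chosen after the values were seen, as were Rps15a, named for its difference, and Rpl15, Rpl35 and Rps10, shown for their sequences. Alternatives were quantile normalization, median centring, a filter on dim probe sets, trended and robust eBayes, other probe set choices, a threshold of 0.1 and leaving out each mouse. Figures were drawn with matplotlib 3.10.9.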

Additional observations from a re-analysis of the deposited data

How the results depend on the processing

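No ribosomal protein gene passed under the replicate block, median centring, the dim filter, trended and robust eBayes, the mean of all probe sets, the brightest _PM_at set alone or a threshold of 0.1, and 1 (Rpl14) passed after quantile normalization. Leaving out each mouse gave 0 to 13 (0 without either wild type mouse, 1 without transgenic mouse 1 and 13 without transgenic mouse 2). Over all probe sets 21 passed, against 15 with the replicate block, 870 after quantile normalization, 614 after median centring, 51 with the dim filter, 139 at a threshold of 0.1 and 0 to 19110 with a mouse left out. With the replicate block the members' median is -0.03 by construction, since a block cannot change a difference between groups in this balanced layout. Members higher without overlap numbered 19 after quantile normalization, 16 after median centring and 3 with _PM_at sets alone (31 genes), where 8 were lower. The shares over all genes were not counted under these settings, so the counts have no background beside them. The sign turned after quantile normalization for Rpl3 (0.0129), Rpl3l (-0.013), Rpl7 (0.0242), Rplp1 (0.0245) and Rplp2 (0.00901), and after median centring for Rpl3 (0.0233), Rpl7 (0.0169), Rplp1 (0.0419) and Rplp2 (0.0506). It turned with the mean of all probe sets for Rpl27 (-0.17), Rps13 (-0.129) and Rps6 (-0.0356), and with _PM_at sets for Rpl39 (0.078), Rps13 (-0.398) and Rps6 (-0.0937). With a mouse left out it turned for Rpl22l1 (-0.009 to 0.138), Rpl27 (-0.00325 to 0.0368), Rpl3l (-0.0906 to 0.0944), Rpl7 (-0.0785 to 0.0049), Rplp0 (-0.0213 to 0.0664), Rplp1 (-0.0468 to 0.0232), Rplp2 (-0.0146 to 0.00835), Rps13 (-0.00515 to 0.0348), Rps19 (-0.404 to 0.0369), Rps6 (-0.00535 to 0.0426) and Rpsa (-0.342 to 0.0527). The cause of these changes was not tested. The number of arrays limits the precision.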
